A study of Mus musculus with 17 samples.

Results

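The uninjured lumbar ganglion of wild-type mice was described here from 5 bulk RNA-sequencing libraries, out of 17 in the series. They are the libraries that the labels place in the wild-type group after a sham operation. Each holds RNA of dorsal root ganglia from levels L4 to L6, and every one carries the label day 30. The other libraries of the series carry a Twik1 (Kcnk1) knockout, a chronic constriction injury (CCI) of the nerve, or both, and were not used. No group was compared with another: the subject is which transcripts a resting ganglion holds, at what level, and how far its libraries differ. The strain, sex and age of the mice are not stated in the labels. Nor is it stated whether each library is from its own animal, so every SD below measures the spread between these 5 samples only. They are referred to as libraries 1 to 5, after the numbers in their labels.

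A dorsal root ganglion holds the cell bodies of the sensory neurons that carry touch, temperature, itch, pain and limb position to the spinal cord. Each neuron body is wrapped by satellite glial cells, and Schwann cells sheathe the axons, either with myelin around large fibres or without it around bundles of thin ones. Small neurons sense heat, noxious stimuli and itch, and divide into peptidergic cells, which release peptides such as CGRP, and non-peptidergic cells. Large neurons, rich in neurofilament, carry touch and proprioception. Blood vessels, connective tissue and macrophages fill the space between. Bulk RNA mixes all of these, so fewer cells of a type and less RNA per cell cannot be told apart.

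Counts assigned to genes numbered 54.5, 56.9, 58.8, 73.6 and 60.4 M (M, mega) in libraries 1 to 5. Levels within a gene are given as counts per M gene counts (CPM), and levels between genes as transcripts per M (TPM), which divide by the length of a gene's merged exons. A count of 0 allows up to 3 counts, or 0.0408 to 0.0551 CPM in these libraries, and counts cover counting error only. A mean of at least 1 CPM was reached by 15184 genes, of which 13485 were protein-coding, 984 long non-coding and 645 pseudogenes. Mitochondrial genes took 0.532 to 0.728% of the counts and ribosomal protein genes 0.478 to 0.609%. Ranks of the 15184 genes agreed closely between libraries (Spearman's rho across genes, which are not independent, 0.983 to 0.990 over the 10 pairs). Every pair differed by more than counting noise, with a median squared difference of 7.33 to 11.1 times the counting variance, so no library was a copy of another.

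Several libraries stood apart in small sets of genes, and the values that rest on them are given with and without them. Library 1 held more transcripts of the interferon response and of 3 posterior Hox genes. Library 3 held more smooth muscle, fat and peptidergic nociceptor transcripts and less of the neurofilament, marrow and blood transcripts. Libraries 3 and 4 held skeletal muscle transcripts, and library 5 held transcripts of central nervous system glia. Transcripts at least 3-fold above every other library, counted among genes at 1 CPM with values under 3 counts set to 3 counts, numbered 72 in library 1, 27 in library 3, 4 in library 5 and 1 each in libraries 2 and 4. On the same floor, transcripts at least 3-fold below every other library numbered 6, 33, 49, 14 and 9 in libraries 1 to 5. Libraries 2 and 3 thus stood apart most often on the low side. The 3-fold rule was chosen after the values were seen.

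The most abundant protein-coding transcripts outside the mitochondrial genome were those of cytoskeleton, myelin and sensory peptide. Tuba1a, an alpha-tubulin of axons, led per length at 11310.5 ± 819 TPM (SD, n = 5), followed by the calcium sensor Calm2 at 8241 ± 568 TPM. The myelin gene Pmp22 stood at 6813 ± 840.3 TPM. Calca, the precursor of the peptide CGRP, reached 5213 ± 1106 TPM and the neurofilament light chain Nefl 5191 ± 838 TPM, also overlapping each other. Apoe, a lipid carrier made by satellite glia, stood at 4484 ± 203 TPM, and Prph, the intermediate filament of small neurons, at 4075 ± 358 TPM. The rest of the leading 20 included the tetraspanin Cd9, the ubiquitin hydrolase Uchl1, the glycolytic enzyme Aldoa, the signalling regulator Rgs4 and the neurofilament heavy chain Nefh (3029 ± 688 TPM). Expression was spread over many genes: 925 to 944 genes made up 50% of a library's counts. Of long non-coding RNAs, Norad stood at 593 ± 79.5 TPM and Peg13, an imprinted transcript, at 149.5 ± 11.01 TPM. Gm15564 was listed higher, at 992 ± 173 TPM.

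The labelled tissue matched its defining markers. All 17 general sensory neuron markers were above 1 CPM, and their summed level was 20277, 21553, 18279, 19702 and 19864 CPM in libraries 1 to 5, a CV of 5.90%. Among the factors that specify sensory neurons, Isl2 (621 ± 44.6 TPM), Prdm12 (468 ± 20.3 TPM), Tlx3 (217 ± 17.9 TPM), and Drgx (217 ± 12.6 TPM) were highest per length. Isl1 stood at 167 ± 9.08 TPM. Pou4f1, which marks nearly all sensory neurons, stood at 123 ± 7.27 TPM. Of the 20 lineage factors, the 18 at 1 CPM had a median CV of 10.54%, beside 11.6% over all 15184 genes. Most markers of spinal cord neurons were at or near 0: Slc32a1, the vesicular GABA transporter, had no count in any library, and 6 of 7 members were under 1 CPM. The sympathetic factor Hand2 also had no count in any library. Ddx3y, a Y-linked RNA helicase, was present in every library at 53.3 to 62.1 CPM.

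Peptidergic nociceptor transcripts were abundant and formed 1 of the more variable neuronal groups. The 12 members summed to 3678, 4428, 6092, 4154 and 4362 CPM, highest in library 3 and lowest in library 1. Calca counted 1936, 2353, 3371, 2189 and 2424 CPM in libraries 1 to 5. Trpv1, the channel opened by heat and capsaicin, counted 138, 169.7, 293, 153 and 139.5 CPM. Gfra3, the artemin receptor, ranked the libraries in the same order, with 76.7, 96.2, 179, 93.2 and 81.7 CPM, and Tac1, the precursor of substance P, counted 336, 405, 672, 409 and 442 CPM. In all of these, library 3 lay above the other libraries, which stayed close together. Without library 3 the list averaged 4156 ± 339 CPM, in place of 4543 ± 915 CPM, and Trpv1 averaged 149.9 ± 14.8 CPM and Gfra3 86.95 ± 9.25 CPM.

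Further peptide and receptor genes were higher in the same library. Gal, the precursor of galanin, counted 28.96, 47.9, 145, 38.4 and 55.1 CPM, Cartpt, the precursor of the CART peptide, 10.3, 17.8, 71.02, 14.4 and 21.6 CPM, and Trpa1, an irritant-sensing channel, 63.2, 61.4, 134, 73.8 and 59.5 CPM. Library 3 was the highest in each, and the other libraries did not reach it. Chrna3, a nicotinic receptor subunit, counted 18.02, 22.5, 87.2, 24.4 and 23.8 CPM and Adra2a, an adrenergic receptor, 6.83, 6.94, 24.9, 5.78 and 6.95 CPM. Both were at least 3-fold above every other library in library 3. They were picked out after their values were seen. Without library 3, Gal averaged 42.6 ± 11.4 CPM and Chrna3 22.2 ± 2.87 CPM.

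Neurofilament-rich neurons ran the other way in library 3. The 17 markers of large myelinated neurons summed to 4632, 5904, 3679.9, 5194 and 5265 CPM, lowest in library 3, and averaged 5249 ± 521 CPM without it, in place of 4935 ± 834 CPM. Nefh counted 2468, 3382, 1770.0, 2825 and 2744 CPM and Nefl 3730.5, 4547, 2920.5, 4021 and 3782 CPM, each lowest in library 3 and highest in library 2. Pvalb, a calcium buffer of proprioceptors, counted 87.6, 119.9, 70.7, 105 and 116 CPM, and Spp1, a secreted protein of large neurons, 373, 432, 354, 428 and 502 CPM. Library 3 held the lowest value of both. Of the 17 markers, 11 were lowest in library 3 and 1 was highest there. Over all 15184 genes at 1 CPM, 23.7% were highest in library 3, and the share lowest there was not counted. Nefh alone held a mean of 2638 CPM, so it weighs heavily in the sum. Calb2, the calcium buffer calretinin, counted 15.97, 32.9, 2.87, 24.4 and 27.8 CPM and Vstm2b, a membrane protein, 15.2, 27.7, 2.55, 19.01 and 20.5 CPM. In both, library 3 lay more than 5-fold below the next library, and these were also named after their values were seen. Whether the share of neuron types, the share of levels L4 to L6 or another feature of library 3 moves these values was not tested.

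Other neuron classes also differed between libraries, and no single library was highest or lowest in all of them. The 20 markers of non-peptidergic and itch neurons summed to 1941, 1639, 1931, 1877 and 1597 CPM, a CV of 9.22%. Mrgprd, a receptor of non-peptidergic nociceptors, counted 344, 277, 299.5, 314 and 251 CPM, with libraries 2 and 5 lowest. Per length it stood at 442 ± 56.96 TPM, above the itch receptor Mrgpra3 at 75.1 ± 9.68 TPM and the itch peptide Nppb at 57.02 ± 7.997 TPM. Th, the dopamine-synthesis enzyme that marks low-threshold C fibres, counted 267, 177, 326, 259 and 229 CPM. It was highest in library 3 and lowest in library 2. The 6 markers of that class summed to 454.9, 334.1, 560.0, 466.5 and 409.4 CPM, with the same highest and lowest library. Trpm8, the cold receptor, was low at 6.83, 7.15, 5.88, 8.09 and 5.26 CPM, or 6.58 ± 1.22 TPM. The lists of low-threshold C fibres and cold-sensing neurons had sums with CVs of 18.6% and 18.8%, beside 16.9% for large myelinated neurons and 20.1% for peptidergic nociceptors.

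**Figure D1:**
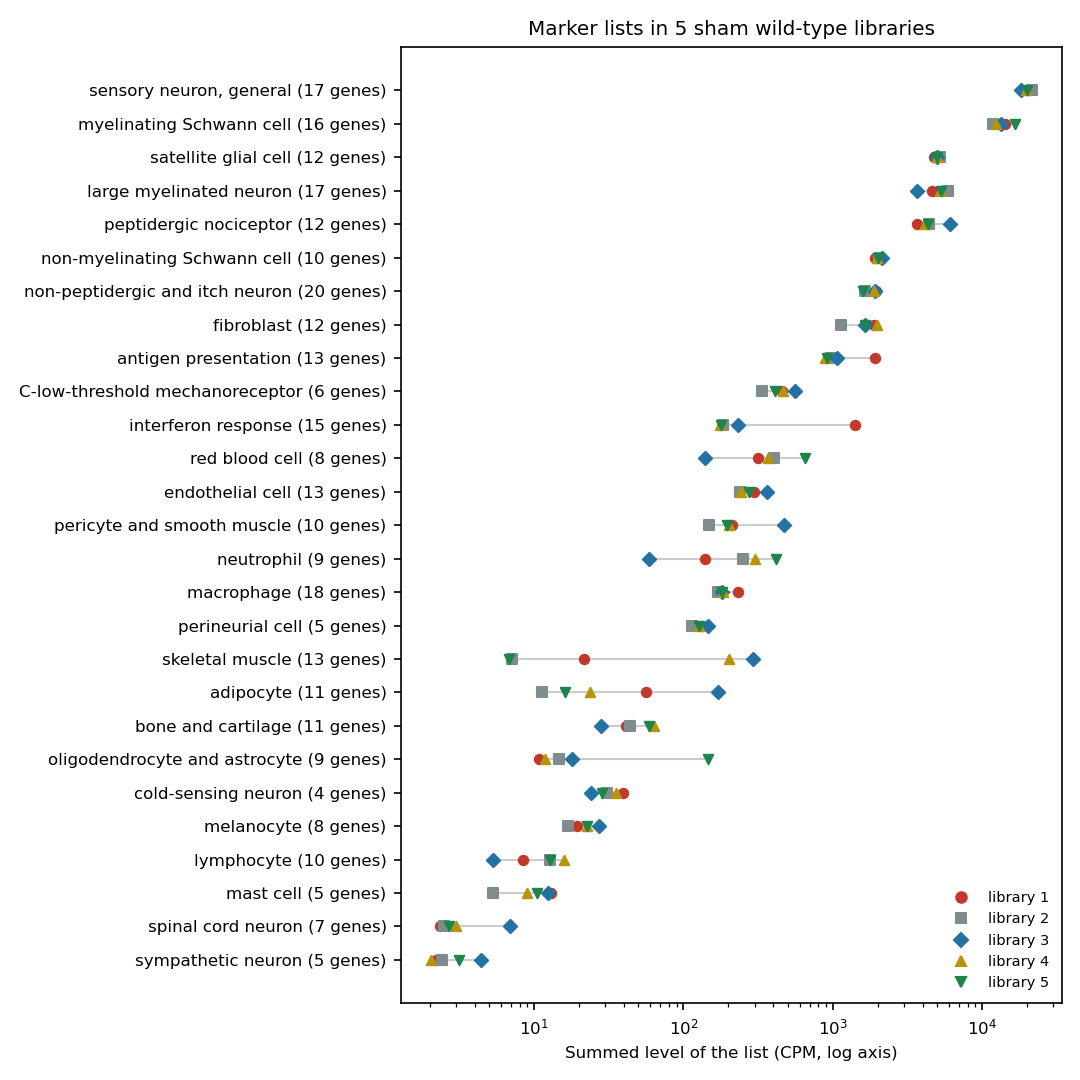
Summed level of each marker list (CPM, log axis) in the 5 sham wild-type libraries, 1 point per library, with the number of genes beside each name. The general neuron and satellite glia lists lie close together, while the interferon list reaches 1406 CPM in library 1 and the oligodendrocyte and astrocyte list 146 CPM in library 5. Lists differ in number and length of genes, so positions along the axis compare libraries, not lists.

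The sum of satellite glia markers was set mostly by 1 gene, Apoe, which held a mean of 3884 ± 159 CPM. Their 12 markers summed to 4796, 5228, 4992, 4950.5 and 4997 CPM, a CV of 3.10%, while the median CV of the single genes was 8.93%. Apoe counted 3744, 4146, 3773, 3867 and 3889.8 CPM. Fabp7, a fatty acid carrier of satellite glia, counted 300.4, 307, 416, 316 and 306 CPM and was 1 of 5 among the 12 members to be highest in library 3. The potassium channel Kcnj10, which clears potassium around neuron bodies, stood at 12.2 ± 2.003 TPM, and the gap junction gene Gja1 at 13.9 ± 2.36 TPM.

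The Schwann cell lists differed in spread between libraries. The 16 myelin markers summed to 14248, 11733, 13409.6, 12396 and 16673 CPM, a CV of 14.1%, with library 5 highest and library 2 lowest. Pmp22, a tetraspan protein of the myelin membrane, counted 6132, 5104, 5977, 5526 and 7195 CPM. Mbp, the myelin basic protein, counted 1699.8, 1354, 1513, 1400.3 and 2119.9 CPM. Both genes ranked the libraries in the same order, with library 5 highest, then 1, 3, 4 and 2. The 10 genes listed for non-myelinating Schwann cells moved less, at 1914, 2039, 2137, 1989 and 2012 CPM, a CV of 4.02%. Some of them, such as Sox10 and S100b, are shared with other glia, so this sum does not measure non-myelinating cells alone. Sox10, the lineage factor of Schwann cells and satellite glia, stood at 121 ± 6.71 TPM and S100b, a calcium-binding protein of glia, at 1283 ± 128 TPM.

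Immune cells were present at low level. The 18 macrophage markers summed to 233, 171, 182, 183 and 182 CPM and 16 were above 1 CPM. Csf1r, the growth factor receptor of macrophages, counted 18.5, 12.7, 12.4, 11.9 and 11.1 CPM, and the complement gene C1qa 20.1, 6.90, 12.1, 9.91 and 10.1 CPM. Library 1 was highest in both. Only 2 of 10 lymphocyte markers reached 1 CPM, and the T cell genes Cd4, Cd3e, Cd3g and Cd8a were all under it. Mast cell markers summed to 5.34 to 12.9 CPM, and the protease genes Cma1 and Tpsb2 overlapped in level per length.

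Vessel and connective tissue transcripts were also present. The 13 endothelial markers summed to 299, 240.5, 365, 242 and 275 CPM, with the tight junction gene Cldn5 at 64.7 ± 5.003 TPM. Fibroblast markers summed to 1882, 1136, 1644, 1984 and 1642 CPM, lowest in library 2 and highest in library 4. Apod, a lipocalin of endoneurial fibroblasts, led them at 459 ± 109.8 TPM, and the collagen genes Col1a1 (137 ± 43.9 TPM) and Col3a1 (88.2 ± 33.3 TPM) overlapped in level. The 44 collagens, which share Col1a1, Col1a2 and Col3a1 with the fibroblast list, were also lowest in library 2 and highest in library 4, with 1271, 919, 1291, 1541 and 1050.1 CPM. Perineurial markers, which include the glucose transporter Slc2a1, summed to 114 to 146 CPM.

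Voltage-gated sodium channels varied little in sum, and more as single genes. The 12 genes summed to 2008, 2011, 2008, 2131 and 1898 CPM, a CV of 4.09%. The median CV of the single genes was 15.5%, beside 11.6% over all genes at 1 CPM. Scn10a, the channel of nociceptor action potentials (Nav1.8), counted 662, 596, 675, 683 and 568 CPM, Scn9a (Nav1.7) 219.8, 202, 238, 232 and 213 CPM and Scn11a (Nav1.9) 364, 307, 420.1, 369.7 and 331 CPM. The lowest value was in library 5 or 2 and the highest in library 3 or 4. Per length Scn10a (313 ± 29.8 TPM) and Scn11a (282 ± 34.7 TPM) overlapped. Scn4b, an accessory subunit, lay below both at 203 ± 36.05 TPM and Scn9a lower again, at 81.4 ± 6.28 TPM. Scn2a and Scn3a were each under 3 TPM. Of 16 voltage-gated calcium channel genes, Cacnb3, an accessory beta subunit, led at 348 ± 22.8 TPM and lay above Cacnb1 (49.6 ± 4.08 TPM) in every library. Cacna2d1, the binding site of gabapentin, stood at 18.7 ± 1.07 TPM and Cacna1h, a T-type channel, at 10.7 ± 1.25 TPM.

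Potassium channels spanned voltage-gated and two-pore-domain genes. Kcnd1 stood at 311 ± 19.0 TPM, Kcna1 at 192 ± 21.0 TPM, Kcns1, a modifying subunit, at 108 ± 17.2 TPM and Kcna2 at 91.97 ± 5.19 TPM. The first lay above the second in every library and the second above the third. Among the 13 measured two-pore-domain channels, which carry resting potassium currents, Kcnk1 (TWIK-1) led at 236 ± 36.7 TPM. Kcnk1 (chr8:126721842-126757440, + strand, GRCm39) is the gene removed in the knockout libraries of the series. It counted 128, 135, 95.3, 139 and 141 CPM in these wild-type libraries and was lowest in library 3. Without that library it averaged 136 ± 5.42 CPM. Kcnk13 followed at 19.6 ± 2.77 TPM, with every Kcnk1 library above every Kcnk13 library. Kcnk13, Kcnk4, Kcnk2, Kcnk5 and Kcnk12 overlapped their neighbours in this order. Kcnk18 (TRESK), a channel of nociceptors, stood at 9.92 ± 0.804 TPM with a CV of 8.34%. Kcnk2 (TREK-1) counted 7.52, 9.75, 26.4, 13.02 and 10.6 CPM and Kcnk3 (TASK-1) 7.52, 9.61, 20.9, 11.6 and 10.2 CPM, both highest in library 3, where Kcnk1 was lowest.

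Sensory transduction genes were led by Asic3, a channel opened by acid, at 258 ± 22.04 TPM, and Trpv1 at 226 ± 80.2 TPM. Trpv2 stood at 134 ± 12.6 TPM. Piezo2, the channel of touch and proprioception, counted 189, 190.4, 191, 194 and 170.3 CPM, a CV of 5.08%, with library 5 lowest. Hcn2, a pacemaker channel, stood at 121 ± 14.1 TPM and P2rx3, an ATP-gated channel of non-peptidergic nociceptors, at 55.9 ± 8.21 TPM. The order of neighbours among these was often not resolved, since their libraries overlapped.

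Receptors of transmitters and drugs spanned a wide range. Htr3a, a serotonin-gated channel, led its list at 437 ± 39.6 TPM, above Adora1, the adenosine A1 receptor, at 74.4 ± 6.30 TPM in every library. The opioid receptor genes were low per length: Oprd1 at 2.75 ± 0.602 TPM, Oprm1 at 1.56 ± 0.314 TPM and Oprk1 at 1.34 ± 0.395 TPM, and Oprl1, the nociceptin receptor, was higher at 23.5 ± 6.92 TPM. The order of Oprd1 and Oprm1 turned with the longest transcript as length, at 1.96 and 3.70 TPM. Grik1, a kainate receptor subunit, led the glutamate and GABA receptor genes at 255 ± 37.4 TPM, followed by the GABA-B subunits Gabbr1 (143 ± 6.27 TPM) and Gabbr2 (85.8 ± 4.74 TPM). Of receptors for growth factors, Ret, the signalling receptor of the GDNF family, stood at 369 ± 31.97 TPM. Ntrk2 and Ntrk3, the receptors of larger mechanosensory and proprioceptive neurons, were at 20.1 ± 1.22 and 22.7 ± 2.46 TPM.

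**Figure D2:**
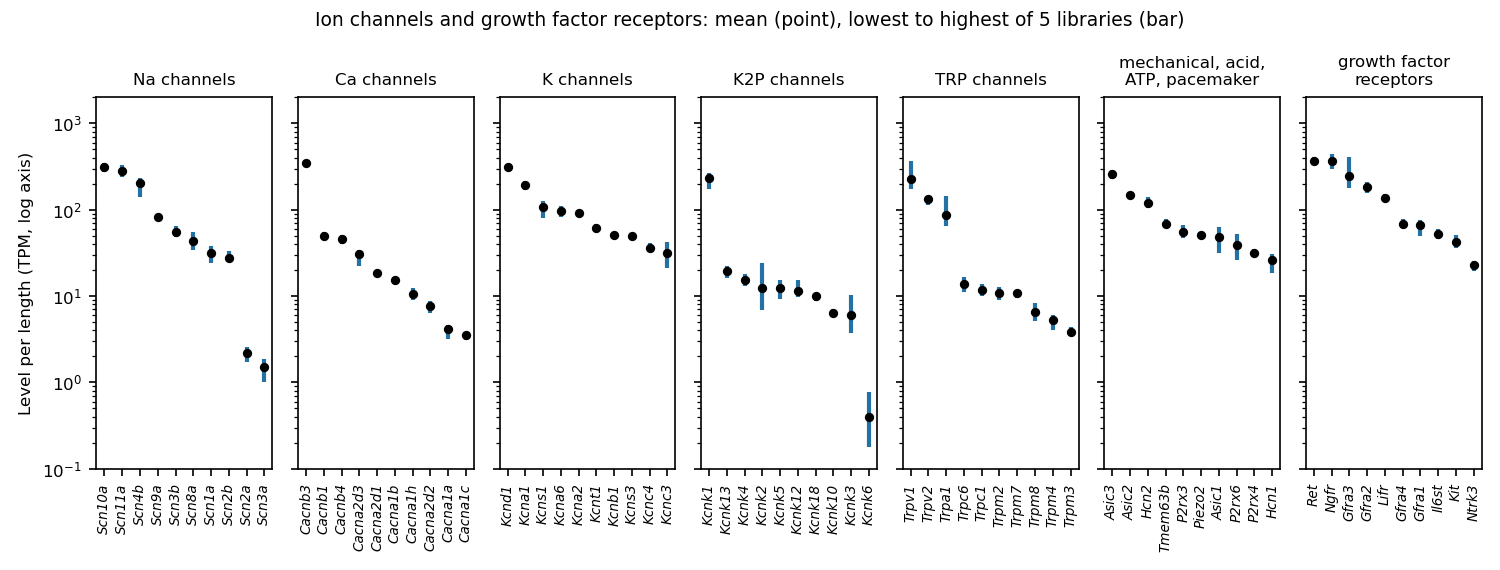
Level per length (TPM, log axis) of up to 10 members of 7 channel and receptor families, with the mean as a point and a bar from the lowest to the highest of the 5 libraries. Kcnk1 lies above the other two-pore-domain channels in every library, and the bars of Trpv1, Trpa1, Gfra3, Kcnk2 and Kcnk3 are long because library 3 is high.

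Injury and activity genes gave the resting level of these programs. Gap43, a growth cone protein that adult sensory neurons keep, stood at 803 ± 93.4 TPM. Atf3, a factor switched on after nerve injury, counted 16.8, 10.6, 15.2, 9.38 and 9.80 CPM, with libraries 1 and 3 above the others. The injury genes Sprr1a and Npy stayed under 1 CPM in every library, at 0.0184 to 0.544 and 0.0544 to 0.385 CPM. Only 8 of 15 members of that list reached 1 CPM. Of immediate early genes, Fos counted 14.9, 10.1, 23.1, 13.4 and 16.1 CPM, Egr1 27.1, 17.5, 53.5, 47.2 and 32.1 CPM and Arc 5.32, 11.8, 3.89, 4.32 and 3.15 CPM. Arc was highest in library 2, while Fos and Egr1 were highest in library 3, so the 3 genes did not share an order. The 17 clock genes summed to 454 to 513 CPM, a CV of 4.75%. The single genes varied more, with CVs of 2.94 to 36.1% and a median of 13.8%, beside 11.6% over all genes at 1 CPM. Dbp, an output gene of the clock, counted 25.2 to 31.9 CPM.

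Hox genes, which record position along the body axis in numbered order within 4 clusters, marked the ganglia as caudal. Of 39 measured, 22 reached 1 CPM. Hoxa9 counted 53.04, 54.4, 46.97, 54.5 and 50.7 CPM and Hoxa10 18.8, 20.4, 11.4, 18.2 and 19.2 CPM, with library 3 lowest in both. Hoxb9 (7.05, 7.92, 2.74, 7.30 and 6.54 CPM) and Hoxc10 (6.11, 5.51, 1.67, 3.97 and 4.83 CPM) were also lowest in library 3, and in each it lay below the range of the rest. Hoxd1, which is kept in nociceptors, counted 31.5, 31.2, 39.1, 33.0 and 28.5 CPM and was highest in library 3.

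Library 1 alone held a further set at the posterior end of the clusters. Hoxd10, on chromosome 2, counted 8.09, 0.263, 0.119, 0.285 and 0.447 CPM, and library 1 lay 18.1-fold above the next. Hoxd11, its neighbour, had 45 counts in library 1 (0.826 CPM) and none in the other libraries. Hoxc11, on chromosome 15, had 35 counts in library 1 (0.642 CPM) and none elsewhere. Against 3 counts in another library these were at least 15.7-fold and 12.2-fold higher. Hoxa11 counted 0.679, 0.246, 0, 0 and 0.149 CPM. No Hox gene numbered 12 or 13 exceeded 0.0993 CPM, the value of Hoxb13 in library 5. Without library 1, Hoxd10 averaged 0.279 ± 0.134 CPM, under the 1 CPM level. Except for Hoxd10 and the leading genes of the family, these were picked out after their values were seen. The kit keeps no strand, so reads of antisense transcripts in the Hox clusters cannot be told apart from these genes.

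**Figure D3:**
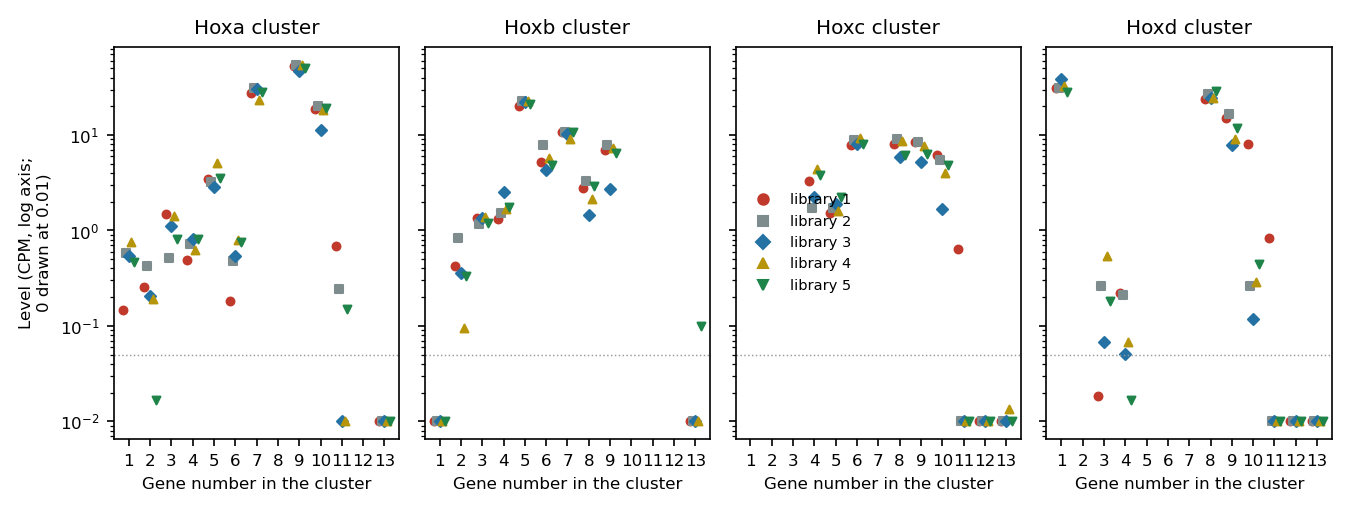
Level of each measured Hox gene (CPM, log axis, values of 0 drawn at 0.01) against its number in the Hoxa, Hoxb, Hoxc and Hoxd clusters, 1 point per library, with a dotted line at the mean level of 3 counts. Apart from Hoxd1, levels are highest at numbers 5 to 10, and library 1 alone lies above the line at Hoxd11 and Hoxc11 and above 1 CPM at Hoxd10.

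Spread between libraries was small for most genes and fell with level. The median CV over the 15184 genes was 11.6%, of which counting noise accounted for little: its own median was 2.86%, and the median CV without it was 11.01%. The middle 90% of genes ran from 3.73 to 43.5%. Genes at 1 to 2 CPM had a median CV of 33.6%, those at 10 to 50 CPM 10.3%, and the 84 genes at 1000 CPM or more 5.29%. A CV above 50% was found in 507 genes, or 3.34%, and 1750 genes were under 5%. Of the 507, 172 were highest in library 1, 131 in library 3, 83 in library 5, 64 in library 4 and 57 in library 2. Of all 15184 genes, 17.2% were highest in library 1, 23.7% in library 3, 17.7% in library 5, 19.4% in library 4 and 22.0% in library 2. Library 3 thus led in many genes of any spread, while library 1 led most often only among the variable ones.

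**Figure D4:**
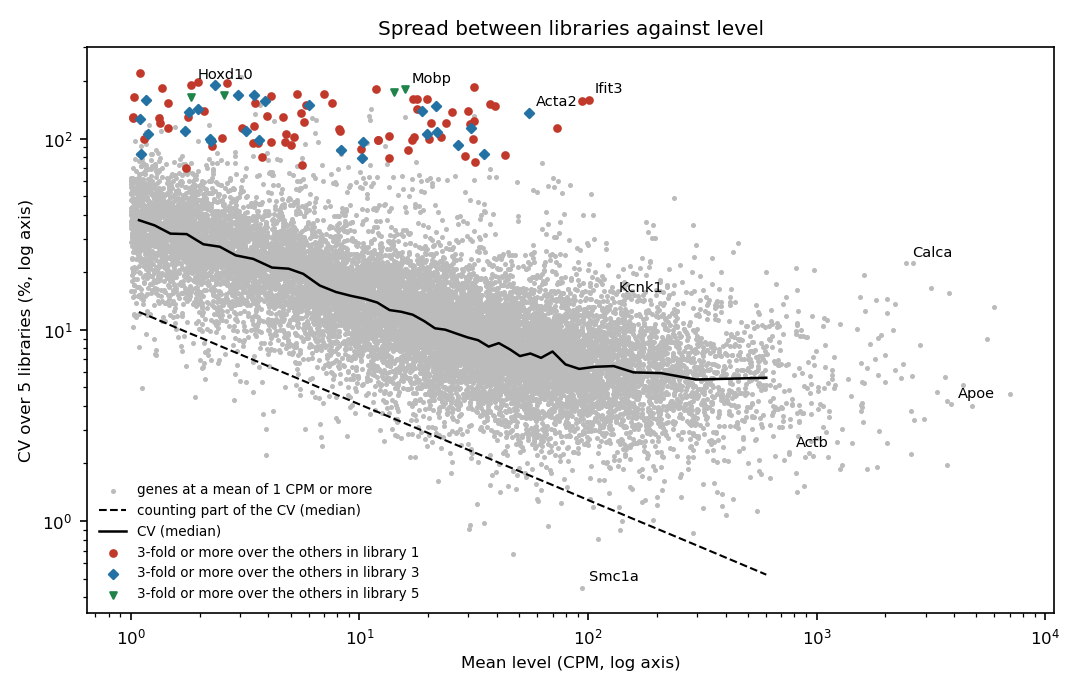
CV over the 5 libraries (%, log axis) against mean level (CPM, log axis) for the 15184 genes at 1 CPM, with the median CV as a solid line and the median counting part as a dashed line. Genes at least 3-fold above all other libraries in library 1, 3 or 5 are coloured. They lie at the top because a 3-fold gap by itself gives a large CV. Smc1a lies under the counting line.

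Among protein-coding genes at 10 CPM or more, Smc1a, a cohesin subunit, varied least and counted 94.6, 94.7, 94.1, 93.8 and 94.8 CPM, a CV of 0.448% that lies below its counting part of 1.33%. Sltm, an RNA-binding protein gene, counted 46.4, 46.9, 46.7, 47.2 and 46.8 CPM and Acadvl, an enzyme of fatty acid oxidation, 109.9, 112, 110.3, 110.5 and 109.9 CPM. Scaling by trimmed means (TMM) in place of library totals moved these CVs to 0.835, 1.38 and 1.30%. The lowest CVs were picked from a large table, and they are given as a description. Ensa, Acaa2, Txndc11, Fam171a1, Ethe1, Snrnp40 and Phactr2 completed the 10 lowest, with CVs up to 0.998%.

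Genes used as references in PCR assays were mostly steady too. The 16 members had a median CV of 5.59%. Ywhaz (1.87%), Actb (2.25%), Gapdh (2.56%), Gusb (3.31%) and Sdha (3.52%) varied least. Pgk1, Tfrc, Eef1a1, Ppia, Hprt1, Polr2a and Rplp0 ranged from 4.04% to 9.28%. Actb, beta-actin, counted 776, 749.6, 751, 741 and 779 CPM. Tbp (12.8%) and Rpl13a (22.97%) varied more. Rpl13a counted 3.38, 4.36, 5.53, 5.15 and 6.36 CPM, low for a ribosomal protein gene, and its count depends on how reads shared with overlapping genes and copies were assigned.

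Library 1 carried a program of interferon-response genes, which cells switch on when interferon binds its receptor. All 15 members of the list were highest in library 1, and their sum was 1406, 183, 233, 177 and 178 CPM in libraries 1 to 5. Ifit3, a gene that restricts viral RNA, counted 389, 27.1, 40.9, 22.4 and 24.5 CPM, and Ifit1, its neighbour, 361, 25.9, 32.8, 26.5 and 26.1 CPM. Gbp2, a GTPase of cell defence, counted 139, 13.5, 14.6, 10.2 and 9.62 CPM and Igtp, another GTPase, 222, 40.5, 35.1, 39.9 and 29.2 CPM. Library 1 lay 5.48 to 11.03 times above the next library in these genes, and the other libraries lay close together. The chemokine gene Cxcl10 counted 50.2, 2.60, 2.79, 1.54 and 2.12 CPM and Irf7, a factor that amplifies the response, 63.4, 6.55, 7.92, 5.27 and 6.37 CPM. Irf1, a related factor, counted 75.4, 19.6, 24.3, 21.2 and 19.9 CPM. Without library 1 the list summed to 193 ± 26.7 CPM, in place of 435 ± 543 CPM with it.

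Antigen presentation genes moved with it. The 13 members summed to 1905, 972, 1075, 892 and 912 CPM, and the sum without library 1 was 963 ± 82.3 CPM. B2m, the light chain of class I molecules, counted 465, 230.0, 273, 213 and 258 CPM, Tap1, the peptide transporter, 95.6, 17.2, 15.2, 12.9 and 11.8 CPM and the class II gene H2-Ab1 83.2, 31.8, 24.2, 20.8 and 26.5 CPM. Library 1 was highest in each and did not overlap the others. The macrophage list was also highest there (233 CPM against 171 to 183 CPM), and its part in the interferon values was not tested. The neutrophil list was not, at 139 CPM in library 1 within a range of 58.7 to 414 CPM in the others. Bst2, tetherin, counted 63.99, 9.54, 16.7, 10.3 and 12.98 CPM and Rsad2, viperin, 87.7, 9.71, 7.24, 10.6 and 11.8 CPM. Ifit3 shares sequence with Ifit3b, Tgtp1 with Tgtp2, Gbp6 with Gbp10, and Iigp1 with Iigp1c, so the split of reads within these pairs is uncertain.

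Promoters of 5 of the genes highest in library 1 are shown because they hold an element that the choice by level did not use. The core of the interferon-stimulated response element, GAAANNGAAA, was searched on both strands in RefSeq promoter windows of 300 bases (250 before and 50 after the start, taken from GRCm38.p6). It was present in 1131 of 32851 windows, or 3.44%, and in at least 1 window of 3.99% of 27025 genes. Of the 72 genes highest in library 1 alone, 52 had a window, and 33 of these (63.5%) held the core. Of the 13 antigen presentation genes, 9 had a window and 1 held it, and of the 27 genes of library 3, 21 had a window and 1 held it. The stretches below run 5′ to 3′ along the gene's strand, with the core in capitals (TTTCNNTTTC where it lies on the other strand). Each was located by an exact match in GRCm39, within 500 bases of the start of the gene named and outside every exon annotated there. They are 5 of the 33, chosen after the matches were seen, and the others were not located in GRCm39.
Ifit1 (chr19:34618145-34618253, + strand): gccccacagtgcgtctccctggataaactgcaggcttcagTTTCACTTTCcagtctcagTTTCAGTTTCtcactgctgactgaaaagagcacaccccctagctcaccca
Ifit3 (chr19:34560733-34560856, + strand): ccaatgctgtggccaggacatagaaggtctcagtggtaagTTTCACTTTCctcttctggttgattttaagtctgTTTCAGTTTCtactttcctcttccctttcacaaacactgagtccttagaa
Rsad2 (chr12:26506522-26506611, - strand): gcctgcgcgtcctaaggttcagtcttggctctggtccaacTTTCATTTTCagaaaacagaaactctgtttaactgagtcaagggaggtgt
Cxcl10 (chr5:92496912-92496998, - strand): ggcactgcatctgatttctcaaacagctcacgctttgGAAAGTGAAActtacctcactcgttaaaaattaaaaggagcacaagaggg
Bst2 (chr8:71990191-71990286, - strand): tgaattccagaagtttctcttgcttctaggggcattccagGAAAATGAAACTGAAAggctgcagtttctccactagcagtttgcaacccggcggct
The Ifit3 stretch also matched chr19:34585129-34585252, before Ifit3b, so the pair cannot be separated there. Ifit1, Ifit3 and Bst2 hold 2 copies of the core, and Rsad2 and Cxcl10 hold 1. The promoters of Irf7, Tap1 and Psmb9 held no core in their windows, which says only that these letters were not there.

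Library 3 carried smooth muscle and fat transcripts. Acta2, the actin of smooth muscle, counted 28.4, 14.3, 191, 19.4 and 24.3 CPM, and Myh11, its myosin, 9.12, 4.41, 65.7, 7.12 and 7.86 CPM. Cnn1, calponin, counted 2.85, 0.685, 22.1, 1.93 and 2.65 CPM. The other libraries stayed at 14.3 to 28.4 CPM for Acta2, far from library 3. The pericyte genes of the same list differed less: Rgs5 counted 108, 86.1, 142, 121 and 109 CPM and Kcnj8 4.97, 3.71, 4.61, 5.34 and 5.56 CPM. The list of both cell types summed to 189.6 ± 28.7 CPM without library 3, in place of 246 ± 129 CPM.

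Fat genes were highest in library 3 and next highest in library 1. The 11 adipocyte markers summed to 56.4, 11.2, 169.8, 23.6 and 16.1 CPM, and averaged 26.8 ± 20.3 CPM without library 3, in place of 55.4 ± 66.3 CPM. Cfd, the complement factor secreted by fat, counted 23.6, 0.527, 76.4, 3.06 and 4.37 CPM, Fabp4, a fatty acid carrier, 3.19, 0.105, 14.6, 0.829 and 0.629 CPM and Adipoq, adiponectin, 0.826, 0.141, 4.44, 0.245 and 0.149 CPM. Only 6 of 11 members reached 1 CPM, and Ucp1, the defining gene of brown fat, was at 0 to 0.147 CPM. The part of these cells in the other values of library 3 was not tested.

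Skeletal muscle transcripts were present in libraries 3 and 4. The 13 markers summed to 21.5, 7.11, 292, 204 and 6.79 CPM, and averaged 106 ± 133 CPM, or 11.8 ± 8.40 CPM without libraries 3 and 4 (an alternative chosen after seeing the data). Acta1, the actin of skeletal muscle, counted 5.84, 1.04, 93.5, 57.3 and 1.16 CPM, Tnnt3, a troponin of fast fibres, 2.83, 0, 42.9, 33.5 and 0.116 CPM and Myh4, a fast myosin, 2.29, 0.457, 23.6, 28.8 and 0.43 CPM. Libraries 2 and 5 were at or near 0 for Tnnt3, and library 1 lay between. Myh1, another fast myosin, was high in library 3 alone, at 0.385, 0.141, 10.3, 0.584 and 0.298 CPM.

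Library 5 carried transcripts of central nervous system glia. Gfap, the filament of astrocytes, counted 2.09, 1.90, 5.82, 2.38 and 58.99 CPM and Mobp, a myelin protein of oligodendrocytes, 2.17, 3.81, 4.69, 1.37 and 67.2 CPM. Mog, a marker of oligodendrocytes, counted 0.0184, 0, 0.374, 0.0136 and 2.86 CPM. Library 5 was highest in each, by 10.1-fold for Gfap and 14.3-fold for Mobp. The 9 members summed to 10.8, 14.7, 17.8, 11.8 and 146 CPM, and to 13.8 ± 3.18 CPM without library 5. Spinal cord neuron markers did not move with them (2.68 CPM in library 5, 2.33 to 6.89 CPM elsewhere). Gfap is also made by peripheral glia, while Olig2, a lineage factor of oligodendrocytes, had 24 counts in library 5 and none elsewhere. The myelin genes Pmp22 and Mbp were highest in the same library, and the part of Mobp-bearing cells in that was not tested. Mmp13, a collagenase, was also high in library 5 alone, at 0.679, 0.527, 0.901, 0.394 and 10.3 CPM, as was the X-linked Xlr4a, one of several close copies, at 0.532, 1.02, 0.238, 0.149 and 7.25 CPM.

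Blood and marrow transcripts varied in all libraries. Ngp, a granule protein of immature neutrophils, counted 47.9, 75.1, 15.5, 107 and 125 CPM and S100a8, a calcium-binding protein of neutrophils, 21.8, 40.1, 11.3, 39.04 and 72.0 CPM. Mpo, an enzyme of their precursors, counted 2.62, 6.78, 0.017, 5.38 and 5.61 CPM, and library 3 held 1 count of it. The 9 neutrophil markers summed to 139, 252, 58.7, 301 and 414 CPM. Hba-a1, a globin gene, counted 198, 255, 89.2, 233 and 412 CPM, and the 8 red cell markers summed to 316, 403, 138, 368 and 651 CPM. Both lists were lowest in library 3 and highest in library 5. Without library 3 they averaged 276 ± 114 and 435 ± 149 CPM, in place of 233 ± 139 and 375 ± 185 CPM. Bone and cartilage markers followed at the low end, with 41.4, 44.1, 27.96, 63.3 and 59.2 CPM. Hba-a1 and Hba-a2 are near-identical, so the split of reads between them is uncertain.

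**Figure D5:**
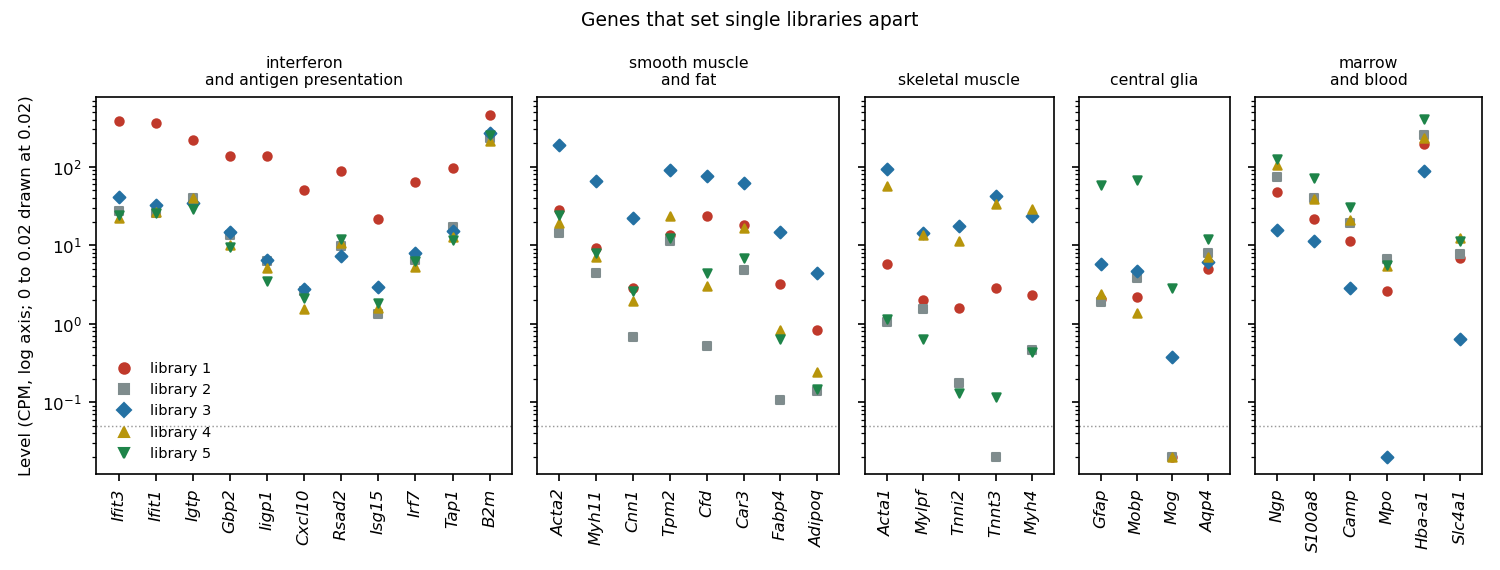
Level (CPM, log axis) of selected genes in the 5 libraries, grouped by the cell type or program they mark, with a dotted line at the mean level of 3 counts. Library 1 lies above the others in every interferon gene plotted, library 3 in the smooth muscle and fat genes, libraries 3 and 4 in skeletal muscle genes, and library 5 in the central glia genes. In the marrow and blood genes library 3 is lowest.

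A single transcript was at least 3-fold above every other library in library 4. The long non-coding Gm70830 counted 0.239, 0.0351, 0.17, 14.4 and 0.248 CPM, 58.1-fold above the next library. No function is known for it in the sources used here.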

How the data were processed

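Bulk RNA was sequenced from lumbar dorsal root ganglia of mice. Per the labels' protocols, a PicoPure kit yielded the RNA and a SMART-Seq v4 kit for ultra-low input, which keeps no strand, made the cDNA. Per the submitters' processing notes, the authors used STAR 2.7.11a for alignment to GRCm39 after bcl2fastq 2.20.0.422. The deposited files list a raw count for every Ensembl gene, with 5 summary lines, left out here, that held reads outside genes (4.18 to 4.55%) and ambiguous reads (7.63 to 8.07%). No label names the counter, the strand setting or the annotation release.

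The 5 sham wild-type libraries were used, and 12 others were not. Symbols, classes and exon lengths came from GENCODE release M39, which matched 78168 of 78298 identifiers. CPM is counts divided by the library's gene counts. TPM divides by merged exon length first. The CV is SD over mean, and its counting part is the Poisson error at each library's depth. No group comparison was made and no p-value was computed. Dixon's criterion, described below, only flagged values for a closer look. The level and spread calculations were tested on simulated data.

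Genes named were the 20 highest and 5 highest long non-coding by TPM, the 25 most and 10 least variable (mean of at least 10 CPM for the last), up to 6 per list, all reference genes and Kcnk1. Other genes that the text names, including list members beyond 6, were chosen after their values were seen. Some genes that these rules name are not reported here. The members of the 45 lists and these rules were chosen with earlier results of these data known, and 6 more lists were built from name patterns. Alternatives were TMM (edgeR 4.0.16) and DESeq2 1.42.0 size factors, each library left out, other level thresholds, other spread measures, longest transcript length and a protein-coding denominator. The software was R 4.3.3, Python 3.11.15, NumPy 2.4.6, pandas 2.3.3 and Matplotlib 3.10.9.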

Additional observations from a re-analysis of the deposited data

Results flagged for a closer look

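A value was set aside for a closer look where the gap between the highest or lowest library and its neighbour exceeded 0.71 of the whole range (Dixon's criterion for 5 samples). Chance flags about 1 in 20 groups, and 983 of the 15184 genes at 1 CPM, or 6.47%, met it. Of 174 genes with values in the text, 48 did, but many of these were named for their spread, and of 51 lists, 8 did. No explanation was tested for any of them.

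Library 1 was high in Ifit3 (389 CPM), Ifit1 (361 CPM), Igtp (222 CPM), Gbp2 (139 CPM), Rsad2 (87.7 CPM), Irf1 (75.4 CPM), Bst2 (64.0 CPM), Irf7 (63.4 CPM) and Cxcl10 (50.2 CPM) of the interferon response and in B2m (465 CPM), Tap1 (95.6 CPM) and H2-Ab1 (83.2 CPM) of antigen presentation. The summed lists stood apart with them, at 1406 CPM for the interferon response, 1905 CPM for antigen presentation and 233 CPM for macrophage markers, with Csf1r at 18.5 CPM. The posterior genes Hoxd10 (8.09 CPM), Hoxd11 (0.826 CPM) and Hoxc11 (0.642 CPM) were high there too. Kcnk12, a two-pore-domain channel, was high in library 1 at 26.0 CPM. Ethe1, one of the steadiest genes, met the rule at 30.9 CPM against 30.2 to 30.4 CPM elsewhere. Genes at 10 to 50 CPM had a median counting CV of 2.68%, so the Ethe1 gap lies within counting error and does not set library 1 apart.

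Library 3 was high in Trpv1 (293 CPM), Gfra3 (179 CPM), Gal (145 CPM), Trpa1 (134 CPM), Chrna3 (87.2 CPM), Cartpt (71.0 CPM) and Adra2a (24.9 CPM), in the smooth muscle genes Acta2 (191 CPM), Myh11 (65.7 CPM) and Cnn1 (22.1 CPM), in the fat genes Fabp4 (14.6 CPM) and Adipoq (4.44 CPM) and in the fast myosin Myh1 (10.3 CPM). It was also high in Fabp7 (416 CPM), Adora1 (118 CPM) and Cldn5 (22.6 CPM). Its sums stood apart for pericyte and smooth muscle markers (473 CPM), adipocyte markers (169.8 CPM), the axon injury list (650.2 CPM, which Gal and Gap43 lead) and spinal cord neuron markers (6.89 CPM, of which the choline transporter Slc5a7 held 5.85 CPM and Gad1 1.04 CPM, with Chat at 0 there). Library 3 was low in Kcnk1 (95.3 CPM), Hoxa10 (11.4 CPM) and Hoxb9 (2.74 CPM).

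Library 5 was high in Mobp (67.2 CPM), Gfap (59.0 CPM), Mog (2.86 CPM) and Olig2 (0.397 CPM) and in the sum of the oligodendrocyte and astrocyte list (146 CPM). It was also high in Mmp13 (10.3 CPM) and Xlr4a (7.25 CPM), and Hoxb13 stood at 0.0993 CPM there and 0 elsewhere. It was low in Piezo2 (170.3 CPM). Library 2 was high in Arc (11.8 CPM). Library 4 was high in Gm70830 (14.4 CPM) and low in Rplp0 (62.6 CPM).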

How the results depend on the processing

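Scaling by TMM or DESeq2 size factors left every summed list and every mean CPM within 1 SD of its value. Leaving out a library lowered values that rest on it, the interferon sum from 435 to 193 CPM and Hoxd10 from 1.84 to 0.279 CPM. Of the counts of genes, TMM moved only those high in library 4 alone, to 2. The CV of 4 of 161 genes under TMM and 3 under DESeq2 size factors moved by over 1.5 times, and that of 82 when some library was left out. Leaving out a library gave 424 to 585 genes with a CV over 50%, and a median CV of 10.7 to 11.5%. The genes 3-fold above all others then numbered 74 to 81 in library 1, 30 to 48 in library 3 (most without library 4), 4 to 7 in library 5, 2 to 17 in library 4 (most without library 3) and 1 to 2 in library 2. At 2-fold, chosen after seeing the data, the numbers for libraries 1 to 5 were 115, 14, 63, 11 and 15. At 5-fold they were 39, 0, 9, 1 and 4, and at a mean of at least 5 CPM 42, 0, 12, 0 and 2. Genes detected numbered 22779 at 0.1 CPM and 9838 at 10 CPM. Genes with a CV over 50% numbered 1211 at 0.5 CPM, 144 at 5 CPM and 20622 with no filter, where the median CV was 65.1%. By the SD of log2(CPM + 0.5), 325 genes passed the equal threshold of 0.682. With the longest transcript as length, 85 of 176 mean TPM values moved by over 1 SD and 17 of the 20 highest genes were shared.

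No paired analysis was possible because no result comes from a comparison of groups. Genes near 1 CPM carry a median counting error of 10.9%, so their spread is the least certain, and 5 libraries give a wide range for any SD. Counts cover counting error only.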

Other observations

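The 11 heat shock and ER stress genes summed to 6002, 6119, 6421, 6599 and 6179 CPM in libraries 1 to 5, a CV of 3.86%, led per length by the chaperone genes Hspa8 (2006 ± 125 TPM), Hsp90aa1 (1212 ± 97.6 TPM) and Hspb1 (1095 ± 106 TPM). The 12 cell cycle genes summed to 58.9, 61.02, 65.7, 68.5 and 64.05 CPM, of which Pcna, a DNA clamp that also serves repair, held 29.5, 26.2, 32.5, 30.98 and 29.1 CPM. Mki67, a marker of dividing cells, was at 2.698, 2.62, 3.13, 3.78 and 4.52 CPM. Of 58 clustered protocadherins, adhesion genes that give neurons their identity at the membrane, 47 reached 1 CPM, and Pcdhac2 led at 57.4 ± 5.69 TPM. Their sum had a CV of 4.49%, and the median CV of the 47 single genes was 21.6%.

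Laminins of the basement membrane summed to 241, 198, 273, 243 and 239 CPM, lowest in library 2, as were the fibroblast and collagen sums. Mitochondrially encoded protein genes summed to 4618, 5037, 6120.1, 5270.4 and 6215 CPM, and the 85 ribosomal protein genes to 5722, 5684, 6089, 4775 and 6013 CPM, lowest in library 4, the most deeply sequenced. In melanocyte markers only Tyrp1 and Mitf reached 1 CPM, and Tyr was at 0 to 0.0951 CPM.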
